A study of Caenorhabditis elegans with 2 samples.

Results

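The regions described here are the short stretches between neighbouring protein-coding genes that are read in the same direction, the layout found inside nematode operons. Protein-coding genes of WBcel235 were sorted by position, and a gap was a stretch of 20 to 500 bp between the end of a gene and the start of the next protein-coding gene on the same strand, with no gene of any class inside it. There were 3351 such gaps among 5244 gaps of that length in any orientation. They joined 5848 of the 19973 protein-coding genes into 2497 runs, of which 1901 had 2 genes, 423 had 3, 114 had 4 and 59 had 5 or more. The median gap was 185 bp long, with quartiles of 103 and 332 bp.

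The data were lists of sites from chromatin immunoprecipitation with sequencing (ChIP-seq) of MADF-8, which contains a MADF domain, a Myb-like domain that contacts DNA. Whole young adult Caenorhabditis elegans of strain RW12322, aged 64 hours and synchronized as starved first-stage larvae after bleaching, carried a CRISPR insertion on chromosome III, madf-8::TY1::EGFP::3xFLAG, and an anti-GFP antibody was used on sonicated chromatin. The 2 biological replicates form the only group, both carry the same insertion allele, and tissues cannot be told apart in whole worms. Sites, not reads, were deposited, so library depth is unknown, and the control named in the labels was not analysed here.

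In nematode operons a promoter in front of the first gene drives 1 precursor RNA for several genes. The downstream messages are released by trans-splicing of a second spliced leader, SL2, at an acceptor shortly after the end of the gene in front. Some operons also hold an internal promoter, and genes can lie close together on 1 strand without sharing a transcript. No operon annotation was used here, so "run" means only genes joined by gaps of the stated length, and the first gene of a run is not known to be the first gene of an operon.

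The gaps in which the results are easiest to see are printed first, on the coding strand from 5′ to 3′, from the RefSeq copy of WBcel235 (ce11). The following are whole gaps, from the base after the upstream gene to the base before the downstream gene. Capitals mark the words AAGGCGCA or GCCTTTAA on either strand, or the acceptor motif TTNCAG where the last bases of the gap match it. The gap before F26F2.7 (chrV:20580691-20580989, plus strand) was among the strongest, with its summit at base 42. The gap before tofu-6 (chrII:5421094-5421247, plus strand, summit at base 46) was the strongest among those under 200 bp. The gap before egg-3 (chrII:10884442-10884704, minus strand, summit at base 104) ended in the acceptor motif. The gap before rnr-1 (chrIII:9228799-9229001, minus strand, summit at base 97) held 1 of the words, not wholly within 50 bp of the summit. The printed gaps do not show how common words are. Of the 20 strongest gap sites, 17 held none of the 3 words described below within 50 bp of the summit.
F26F2.7: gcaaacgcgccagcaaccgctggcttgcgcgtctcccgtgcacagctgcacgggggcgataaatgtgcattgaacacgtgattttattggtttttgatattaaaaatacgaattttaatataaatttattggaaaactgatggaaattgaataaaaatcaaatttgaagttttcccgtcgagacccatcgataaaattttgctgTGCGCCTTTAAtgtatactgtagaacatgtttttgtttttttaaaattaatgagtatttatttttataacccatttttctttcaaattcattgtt
tofu-6: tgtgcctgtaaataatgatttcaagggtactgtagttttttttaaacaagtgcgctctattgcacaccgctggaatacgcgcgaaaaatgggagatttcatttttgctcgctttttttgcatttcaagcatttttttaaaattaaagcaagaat
egg-3: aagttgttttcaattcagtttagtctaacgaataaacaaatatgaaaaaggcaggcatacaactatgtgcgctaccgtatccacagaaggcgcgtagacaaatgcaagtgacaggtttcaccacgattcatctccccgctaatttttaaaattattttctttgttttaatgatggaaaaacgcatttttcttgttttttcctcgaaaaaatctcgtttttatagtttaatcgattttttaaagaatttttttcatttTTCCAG
rnr-1: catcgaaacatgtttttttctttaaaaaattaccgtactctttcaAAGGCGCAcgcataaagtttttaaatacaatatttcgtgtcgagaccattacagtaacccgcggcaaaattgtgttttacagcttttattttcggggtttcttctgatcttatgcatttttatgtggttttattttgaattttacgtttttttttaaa

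For 4 longer gaps only the summit and the 50 bases on each side of it are shown. They are from the gaps before perm-1 (chrII:7880549-7880649, plus strand), hcp-1 (chrV:6593850-6593950, plus strand), cul-4 (chrII:7301796-7301896, plus strand) and oma-1 (chrIV:8888644-8888744, plus strand). Of these, perm-1 held 2 of the words, which overlap there, and the other 3 held none.
perm-1: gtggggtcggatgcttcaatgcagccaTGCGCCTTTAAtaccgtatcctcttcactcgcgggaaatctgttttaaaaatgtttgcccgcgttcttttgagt
hcp-1: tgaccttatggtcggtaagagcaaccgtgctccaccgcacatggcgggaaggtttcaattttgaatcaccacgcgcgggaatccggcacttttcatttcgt
cul-4: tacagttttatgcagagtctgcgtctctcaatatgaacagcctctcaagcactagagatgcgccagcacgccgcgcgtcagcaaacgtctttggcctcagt
oma-1: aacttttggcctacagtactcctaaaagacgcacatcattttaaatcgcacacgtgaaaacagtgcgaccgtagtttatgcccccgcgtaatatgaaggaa

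Few of the same-strand gaps held a MADF-8 summit, the position of highest signal in a site. Per kb they were not poor in summits, with 0.2 in the list from both replicates, where the whole genome, gene bodies included, had 0.0197 sites. In the list made by the authors from both replicates, 145 of 3351 gaps (4.33%, 95% Wilson interval 3.69% to 5.07%) held a summit, where 5.84% of gaps of any orientation did. Replicate 1 alone gave 117 gaps (3.49%, where 4.42% of gaps of any orientation held one) and replicate 2 alone 124 (3.7%, where 5.02% did). Both replicates held a summit in 95 gaps, which were 81.2% of those of replicate 1 and 76.6% of those of replicate 2. All 95 were among the 145 gaps. Of the 838 gaps between genes read away from each other, which hold both promoters, 135 (16.1%, 13.8% to 18.8%) held a summit. Of the 1055 gaps between genes read towards each other, which hold no annotated start, 26 (2.46%, 1.69% to 3.59%) did. Over all lengths same-strand gaps lay between the other two orientations, and the intervals of the 3 did not overlap. This did not hold for gaps under 200 bp, where 1.25% of same-strand gaps (0.825% to 1.88%) and 1.02% of convergent ones (0.436% to 2.36%), those between genes read towards each other, held a summit. Under 100 bp the shares were 0.419% and 0.733%, and from 200 bp on 7.76% (6.54% to 9.18%) and 3.72% (2.45% to 5.62%). These intervals cover counting over gaps of 1 genome only.

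Longer gaps held a summit more often than short ones. Under 100 bp, 3 of 716 gaps held a summit (0.419%), and from 100 bp to under 200 bp 19 of 1049 did (1.81%). From 200 bp to under 300 bp the count was 41 of 577 (7.11%), from there to under 400 bp 38 of 538 (7.06%), and from 400 to 500 bp 44 of 471 (9.34%). The shares on either side of 200 bp were 1.25% (0.825% to 1.88%) and 7.76% (6.54% to 9.18%), with 1.08% and 6.18% in replicate 1 and 0.907% and 6.81% in replicate 2. The summits per kb were 0.0564, 0.137, 0.286, 0.207 and 0.213 in the 5 classes from short to long, highest in the middle class. The gaps that held a summit had a median length of 323 bp and the others one of 176 bp. In the 50 bp of length just above the upper limit 5.03% of same-strand gaps held a summit (10 gaps), and in the 50 bp just below it 9.52% did (22 of 231). Just outside the lower limit, none of 58 gaps of 1 to 19 bp did, and none of 36 of 20 to 29 bp. Gaps between genes read away from each other reached 7.79% below 200 bp and 19.3% from there on. The labels give sonicated fragments of 200 to 800 bp, and the sites in gaps were 70 to 396 bp wide with a median of 276 bp, so that the short gaps were narrower than most sites. Many sites had exactly this width with the summit at the middle, so the deposited width need not measure the extent of binding. The part of fragment size in these shares was not tested.

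**Figure D1:**
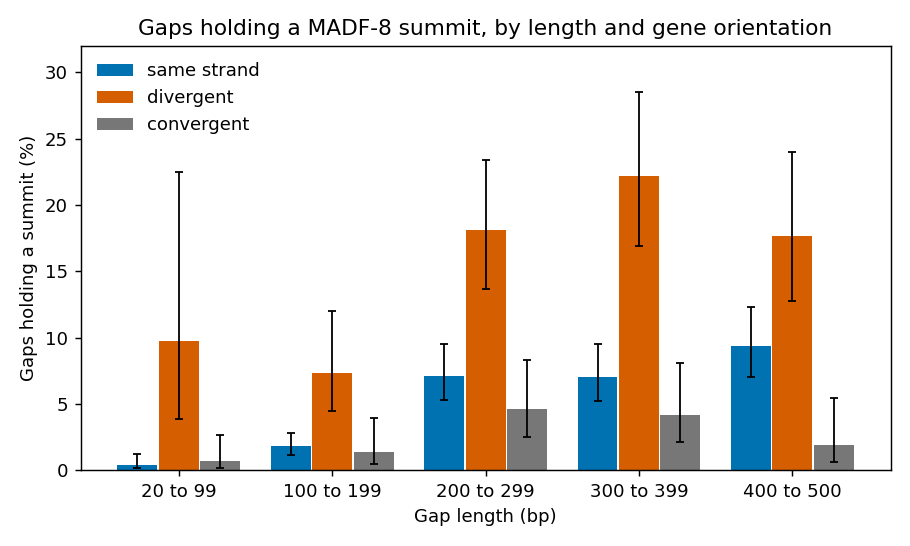
Share of gaps holding a summit of the list from both replicates (y axis, %) by gap length (x axis, bp), for same-strand, divergent and convergent neighbours, with 95% Wilson intervals as error bars. Same-strand gaps rise from 0.419% in the shortest class to 9.34% at 400 to 500 bp and lie below divergent gaps in every class.

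The start of the run held a summit more often than the starts of genes inside it. In the stretch from 500 bp before to 100 bp after the annotated start, called the start window, 342 of 2497 first genes (13.7%, 12.4% to 15.1%) held a summit, where 6.51% of all protein-coding genes did. Of the 3351 later genes of runs 171 did (5.1%, 4.41% to 5.9%), and of the 14125 genes in no run 788 did (5.58%, 5.21% to 5.97%). Replicate 1 gave 260 first genes (10.4%, where 4.94% of all genes held one) and replicate 2 gave 290 (11.6%, where 5.63% did), with 4.06% and 4.42% of later genes. The upstream neighbour of the run moved with this share. Where that neighbour was on the opposite strand, at any distance, 266 of 1499 first genes (17.7%) held a summit. Where it was on the same strand, 76 of 998 did (7.62%, 6.13% to 9.43%). The starts of opposite-strand neighbours can share 1 window only where they are close, and these genes were not split by that distance.

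The split at 200 bp also separated the runs by where the summits lay. Among the 1264 runs whose first gap was under 200 bp, 225 first genes (17.8%) held a summit in their window and 2.77% of second genes did. The difference was 15 percentage points (95% interval 12.8 to 17.3), with 216 runs that had a summit at the first gene alone and 26 at the second alone. A two-sided exact McNemar test on these runs gave p = 1.89e-38 (1.51e-37 after Benjamini-Hochberg adjustment over 8 such tests). The difference was 11.6 points in replicate 1 and 13.1 in replicate 2. It was 9.26 points for the sites with signal at or above the median (exact McNemar p = 5.46e-25) and 5.3 with a window that began 200 bp before each start (exact McNemar p = 1.43e-09). Over the 445 of these runs with a same-strand upstream neighbour, the shares were 9.44% and 2.7% and the difference 6.74 points (3.69 to 9.79, exact McNemar p = 2.39e-05, adjusted 9.54e-05). Pairs here are runs of 1 genome and not replicates, and the p covers counting over runs only. The window of a second gene with a short gap reaches back into the first gene, and of the 35 summits found there 20 lay in the gap, 6 in the first gene and 9 elsewhere. By the rule, no gap of this kind lies before a first gene. Summits were rare in bodies of first genes (0.0109 per kb) and more frequent upstream of runs (0.208 to 0.352 per kb). The test cannot tell a preference for first genes from this difference in what the windows cover. In stretches of equal length the 1264 runs had 2.69% upstream and 1.58% in the gap (exact McNemar p = 0.0759).

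Where the first gap was 200 bp or longer, the difference between first and second genes did not pass the test. Of 1233 such runs, 9.49% had a summit at the first gene and 8.6% at the second, a difference of 0.892 points (-1.22 to 3.01, exact McNemar p = 0.452, adjusted 0.517). The interval leaves room for up to 3.01 points in favour of the first gene and 1.22 in favour of the second. With a same-strand upstream neighbour, 553 such runs had 6.15% at the first gene and 8.68% at the second, a difference of -2.53 points (-5.27 to 0.206, exact McNemar p = 0.0925, adjusted 0.148). In replicate 1 alone this difference was -3.25 points (exact McNemar p = 0.0114) and in replicate 2 alone -2.89 (exact p = 0.0365), both unadjusted. Whether the difference between first and second gene itself differed between runs with short and long gaps was not tested. The choice of 200 bp was made after seeing the data.

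**Figure D2:**
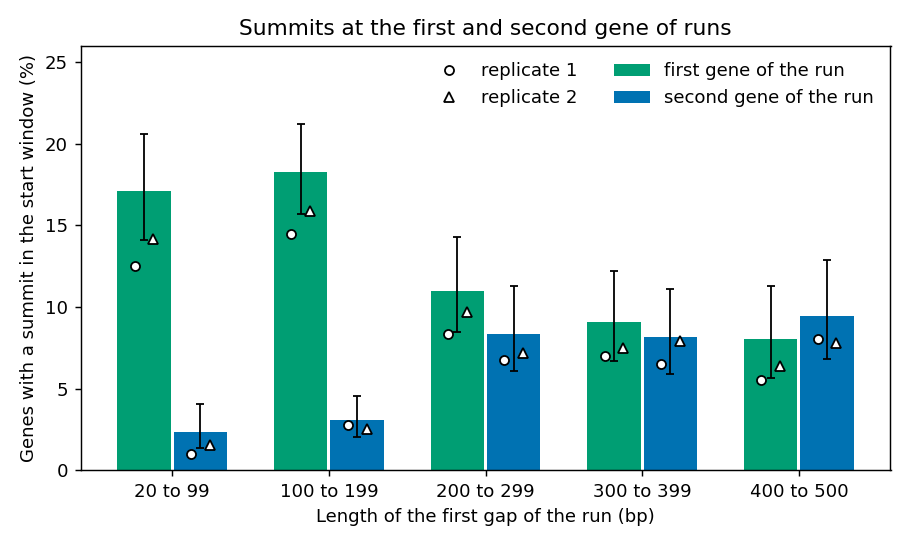
Share of first and second genes of runs with a summit in their start window (y axis, %) by the length of the first gap (x axis, bp). Bars are the list from both replicates with 95% Wilson intervals, circles replicate 1 and triangles replicate 2. First genes lie at 17.1% and 18.3% in the shortest classes and at 8.06% in the longest, where second genes stand at 9.44%.

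A comparison of stretches of equal length gave another view, since the start window is longer than most gaps. For each run the first gap was set against the stretch of the same length directly upstream of the first gene. Over all 2497 runs, 4.61% of the upstream stretches and 4.81% of the first gaps held a summit, a difference of -0.2 points (-1.31 to 0.913). There were 98 runs with a summit in the upstream stretch alone, 103 in the gap alone and 17 in both (exact McNemar p = 0.778, adjusted 0.778). With first gaps under 200 bp the shares were 2.69% upstream and 1.58% in the gap (exact McNemar p = 0.0759, adjusted 0.148). With first gaps of 200 to 500 bp they were 6.57% and 8.11% (exact McNemar p = 0.137, adjusted 0.183). Over the 998 runs with a same-strand upstream neighbour they were 2.91% and 5.11%, a difference of -2.2 points (exact McNemar p = 0.00815, adjusted 0.0217). There the first gap held a summit more often than the sequence just before the run. A gap holds no gene by the rule, but an upstream stretch can overlap one, and these 998 runs were not restricted to stretches that do not. Over the 2071 runs of any kind whose upstream stretch overlapped no gene, the difference was -0.531 points (exact McNemar p = 0.406). When any overlap of a site counted in place of its summit, the difference over all runs turned to 3.24 points in favour of the upstream stretch (exact McNemar p = 4.41e-06), and with gaps of 20 to 200 bp only it was 1.1 points (exact McNemar p = 0.0479).

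Along the run as a whole, summits per kb were high upstream and in gaps and low in gene bodies. They stood at 0.208 in the first 100 bp upstream of the run, 0.352 in the next 100 bp, 0.336 in the next and 0.232 in each of the last 2 steps of 100 bp. Gaps of 200 to 500 bp held 0.23 summits per kb and gaps under 200 bp held 0.115. The bodies of first, middle and last genes held 0.0109, 0.0136 and 0.0115, and the 500 bp after the last gene 0.0569.

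**Figure D3:**
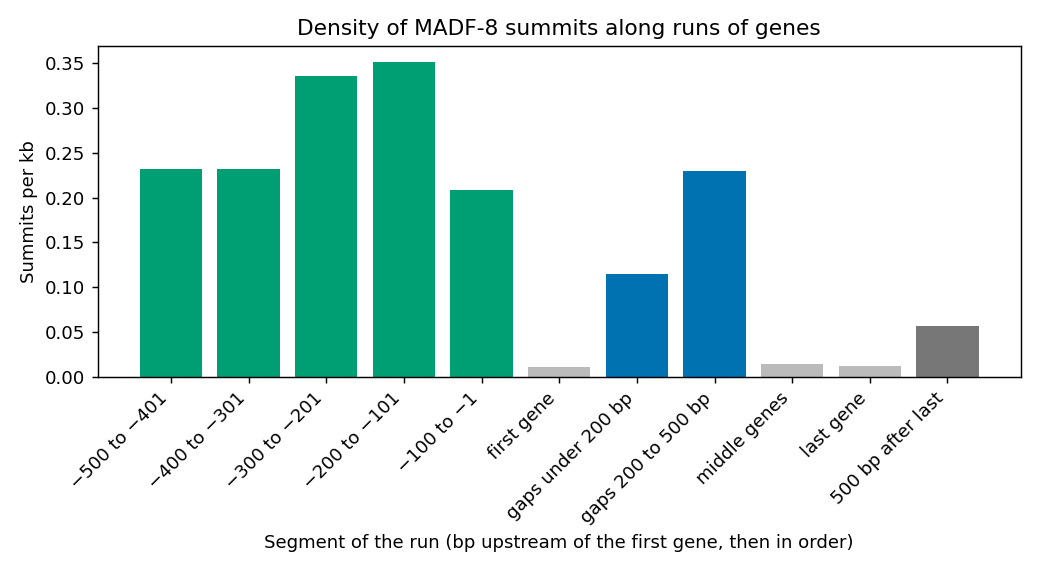
Summits of the list from both replicates per kb (y axis) in successive segments of the 2497 runs (x axis), from 500 bp upstream of the first gene to 500 bp after the last. Gene bodies stand near 0.01 per kb, gaps of 200 to 500 bp at 0.23 and the second 100 bp upstream of the run at 0.352. Bars are single totals over the genome with no replicate error.

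Most runs held nothing in either place. Of the 2497 runs, 2049 had no summit at the start or in a gap, 307 had 1 or more at the start only, 106 in a gap only and 35 in both. No site had its summit counted in both places. Among the 1117 runs in which every gap was under 200 bp, 197 had a summit at the start only and 13 in a gap only. In the other 1380 runs the counts were 110 and 93. In 4 runs at least 2 gaps held a summit, and none of these was a run of short gaps only. By place in the run, the first gap held a summit in 120 of 2497 runs (4.81%), the second in 13 of 596 (2.18%, 1.28% to 3.7%) and later ones in 12 of 258 (4.65%, 2.68% to 7.95%). The median lengths of first, second and later gaps were 197, 157 and 118 bp, so the order of the shares was not that of the lengths.

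The chromosomes differed. On I, 43 of 580 gaps (7.41%, 5.55% to 9.84%) held a summit and on II 40 of 632 (6.33%). The counts were 23 of 560 on III (4.11%), 18 of 508 on IV (3.54%) and 21 of 827 on V (2.54%, 1.67% to 3.85%), where the gaps were longest, with a median of 241 bp. On X none of 244 gaps did, with a Wilson upper limit of 1.55%, and the median gap there was 200 bp. Sites and gene starts outside these gaps were not counted by chromosome. Whether the differences belong to same-strand gaps or to the spread of all sites was therefore not tested.

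The 147 sites with a summit in these 145 gaps were 7.45% of the 1972 sites of the list. Their signal, 1 value per site given by the authors and so without SD, had a median of 136 with quartiles of 93 and 251, against 133 for the 316 sites at run starts and 120 for all sites. Of the 100 strongest sites 14 lay in gaps. In the replicates' own thresholded lists, 97 of the 147 sites (66%, 58% to 73.2%) overlapped a site in both, 13 in replicate 1 alone, 26 in replicate 2 alone and 11 in neither, where 58.3% of all sites overlapped one in both. The 97 had replicate 1 signals of 41.9 to 972.4 with a median of 92.4 and replicate 2 signals of 43.7 to 1171.1 with a median of 111. The 11 in neither had signals of 13.3 to 86.3 in the list from both.

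Taken over all gap lengths, summits were spread over the gaps. The median distance from the downstream start was 163 bp, with limits of 1 and 420 bp, and 95 of 147 lay within 200 bp. Only 64 (43.5%) were nearer to the downstream start than to the end of the upstream gene. In gaps of 200 bp or more 47 of 125 were, while most of the 22 in shorter gaps lay nearer to the downstream start. By the deposited widths, many of them the same 276 bp, the whole site lay within the gap for 54 of the 147, and the others reached into a neighbouring gene.

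**Figure D4:**
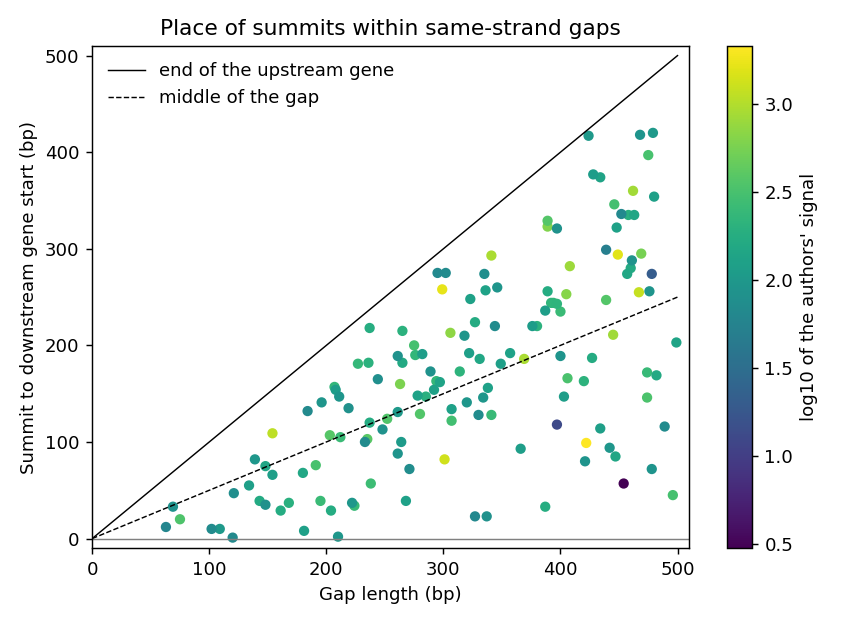
Distance of each of the 147 summits from the start of the downstream gene (y axis, bp) against gap length (x axis, bp), coloured by log10 of the authors' signal. Points on the solid line would lie at the end of the upstream gene and points on the dashed line in the middle of the gap. Taken over all gap lengths, summits lie from 1 to 420 bp before the start.

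The 20 strongest gap sites lay before genes of varied roles. The values given for each are the signal in the list from both replicates, then in replicate 1 and replicate 2, each from its own list. The strongest, before C01G8.1 (I, 422 bp, behind cln-3.2), had 2146.6, with 972.4 and 1171.1. The gap before F26F2.7 (V, just under 300 bp, behind F26F2.8), whose product is a TAPT1 homolog in RefSeq, had 1679.6, with 707.8 and 960.7. Both replicates placed these first and second among the 20 strongest gap sites.

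The gap before hcp-1 (V, 449 bp, behind ZK1055.2), which encodes a kinetochore protein of the CENP-F kind, had 1615.4, with 671.3 and 948.5. The gap before chs-1 (I, 301 bp, behind T25G3.1), for the chitin synthase of the eggshell, had 1331.9, with 624.6 and 700.2. The gap before cul-4 (II, 467 bp, behind C30G12.1), for a cullin of a ubiquitin ligase that restrains replication licensing, had 1201.2, with 555.3 and 646.8. In these 3 gaps the summit lay 294, 82 and 255 bp before the downstream start, and replicate 2 gave the higher signal each time.

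The site before tofu-6 stood apart by its short gap of 154 bp behind EEED8.15. This gene acts in making piRNAs, the small RNAs that guard germline genomes, and its site had 1107.6, with 573.3 and 530.3. It was the only gap under 200 bp among the 20 strongest. Next among the short gaps came Y39B6A.43 (75 bp, 346.1, with 143.9 and 198.5) and ZC308.4 (191 bp, 317.5). Of the 22 sites in short gaps 13 were in the lists of both replicates, and 4 were in neither, before nxt-1, tmem-39, rars-2 and nbs-1, with signals of 61.4 to 82.1.

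The gap before oma-1 (IV, 408 bp, behind C09G9.5), a zinc-finger protein of oocyte maturation, had 824.0, with 357.2 and 463.4. The gap before perm-1 (II, 306 bp, behind T01H3.5), needed for the permeability barrier of the eggshell, had 704.2, with 292.8 and 402.7. The gap before sun-1 (V, 389 bp, behind F57B1.1), a nuclear envelope protein that moves chromosomes in meiosis, had 616.5, with 304.3 and 313.9. The gap before egg-3 (II, 263 bp, behind F44F4.3), a phosphatase-like protein of the egg-to-embryo transition, had 594.5, with 279.8 and 307.7, and that before egg-4 (I, 469 bp, behind T21E3.2), of the same family, had 559.3, with 239.3 and 317.1. The gap before rnr-1 (III, 203 bp, behind T23G5.3), the large subunit of ribonucleotide reductase, had 380.9, with 192.3 and 190.7. The other 8 of the 20 strongest lay before Y110A7A.15, zhp-3, acs-13, F32D1.7, C28A5.1, T05F1.2, ubc-9 and uba-1, with signals from 938.5 down to 372.9. Here zhp-3 acts in meiotic crossing over, ubc-9 conjugates SUMO and uba-1 activates ubiquitin. All 20 sites were present in the lists of both replicates.

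At the other end, 3 sites had a signal below that of an overlapping candidate of a replicate. They lay before set-4 (20.2), gna-2 (13.3) and pal-1 (3.0), and in the pal-1 gap the candidates of the replicates had 28.0 and 46.0. The gaps before set-4 and gna-2 each held a second summit, with signals of 90.5 and 86.2. Both set-4 sites had the same candidate signals, 33.1 in replicate 1 and 54.3 in replicate 2. Both gna-2 sites had 34.9 in replicate 1, so these candidates do not belong to the weaker sites alone.

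Gene lists were read against the shares over all runs, in which 13.7% of first genes, 1.25% of gaps under 200 bp and 7.76% of longer gaps held a summit. Among 26 cytosolic ribosomal protein genes that open a run, 17 (65.4%) held a summit at the start, against 13.7% of all first genes. None of the 8 gaps before such a gene did, and at shares this low over all gaps a count of 0 is no result about the list. The strongest starts were at rpl-20 (533.5, the first of 5 genes, followed by cyc-2.1), rpl-15 (409.0) and rpl-12 (300), and the sites at all 3 were in the lists of both replicates. The sites at rps-25, rps-22 and rpl-36 were in neither list and that at rpl-1 in replicate 2 alone. The neighbours rps-10 and rpl-24.1 share 1 site (117.7), and the rpl-12 site also counts for lin-54. Most of the 17 have an upstream neighbour on the opposite strand, where 17.7% of all first genes held a summit. The 8 gaps lay before rpl-27, rla-1, rpl-19, rps-17, rps-7, rpl-16, rps-16 and rpl-25.1, and 5 of them were under 200 bp. With 8 gaps, a count of 0 leaves room for a share of up to 32.4% (Wilson). Mitochondrial ribosomal protein genes, mostly inside runs, had 3 of 16 starts (18.8%) and 0 of 26 gaps held (upper limit 12.9%), and 20 of the 26 gaps were under 200 bp. Both counts lie near the shares over all first genes and all gaps of these lengths. The 3 starts were those of mrpl-37 (167.8), mrps-7 (128.1) and mrpl-9 (78.5).

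Cell cycle and replication genes had summits in both places. Of 25 that open a run 17 (68%) held a summit at the start, against 13.7% of all first genes, led by the cyclin B genes cyb-2.2 (1188.9) and cyb-2.1 (676.6) and by psf-3 (669.8), a subunit of the GINS replication complex. Of 14 gaps before such genes 4 held one (28.6%, 11.7% to 54.6%), all among the 6 gaps of 200 bp or more. They lay before hcp-1, the helicase genes mcm-5 (226.0) and mcm-4 (224.9), and the kinetochore gene knl-1 (119.2). The site before knl-1 was in the list of replicate 2 but not of replicate 1. Among the 17 starts, the site at spdl-1 (102.9) was in neither list, and those at orc-1, him-10, cdc-6 and bir-1 were in a single list. The site at bub-1 (266.9) also counts for lin-61.

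Oogenesis and maternal genes had the highest share of gaps held among the lists. Of 12 gaps before them 8 held a summit (66.7%, 39.1% to 86.2%), and 10 of the 12 were 200 bp or longer, with 8 of these 10 held. Beside chs-1, oma-1, egg-3 and egg-4, they were puf-5 (331.8, with 144.6 and 186.0), an RNA-binding protein of oocytes, daz-1 (166.9), needed in oogenesis, gld-1 (129.2), a translational repressor of the germ line, and egg-2 (49.5), a receptor-like protein of the oocyte surface. The site before egg-2 was in the list of replicate 2 alone. The 4 gaps with none lay before gld-2, par-6, nos-1 and par-2. Only 4 genes of this list open a run, and 2 of them, oma-2 (607.4) and sqd-1 (138.2), held a summit at the start. The related genes oma-1 and oma-2 thus had a strong site each, in a gap for one and at a run start for the other.

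Meiosis genes had 4 of 12 gaps held (33.3%, 13.8% to 60.9%), all among the 9 of 200 bp or more, before zhp-3 (926.9), sun-1, dsb-2 (351.1), which acts in making meiotic DNA breaks, and pch-2 (125.9, replicate 2 alone), a checkpoint ATPase. Their starts were held in 3 of 10 runs, led by rec-8 (539.0), for a meiotic cohesin. Germ granule and small RNA genes had 5 of 10 gaps held (50%, 23.7% to 76.3%) and 3 of 8 starts. Apart from the helicase gene glh-1 (81.4, replicate 2 alone) these were genes of piRNA production, namely tofu-6, pid-1 (120.4, both replicates), pid-3 (80.5, neither replicate) and prde-1 (67.3, replicate 1 alone). The gaps before tofu-6, pid-1 and prde-1 were under 200 bp and made up 3 of the 22 short gaps with a summit. Against all same-strand gaps, 1.25% of the short and 7.76% of the long held one. Most counts in these lists are too small to place the share closely.

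The remaining lists had 1 or 2 gap sites each. Splicing genes had 1 of 14 (rsp-6, 252.7), proteasome genes 1 of 8 (rpn-11, 249.8), translation factors and tRNA synthetases 2 of 16 (eif-3.C, 259.2, and rars-2, 67.7), the respiratory chain 2 of 13 (sdha-2, 171.1, and cyc-1, 152.3) and chromatin genes 1 of 10 (set-2, 217.4). Most of their gaps were short. Of those of 200 bp or more, 1 of 6 before splicing genes held a summit, 1 of 3 before proteasome genes, 1 of 5 before translation genes, 2 of 3 before respiratory chain genes and 1 of 2 before chromatin genes. Their starts were held in 3 of 15 (20%), 2 of 6 (33.3%), 3 of 20 (15%), 2 of 5 (40%) and 4 of 10 (40%) runs, in the same order, beside 13.7% of all first genes. The gene lists were chosen with earlier results of these data known, so these shares are descriptions.

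Single runs show the layouts. In the longest, of 9 genes on IV from sgo-1, a protector of chromosome cohesion, to rpap-3, the start held a site of 925.0 and 2 of 8 gaps held one, before rsp-6 (474 bp, 252.7) and imp-3 (233 bp, 69.9). In the run that lin-53 opens on I (5 genes, gaps of 88 to 278 bp), a chromatin protein that binds histones, the start held 423.8 and no gap held a summit. Among the 59 runs of 5 or more genes, 8 starts and 14 of 262 gaps held a summit. Both counts lie near the shares over all runs, 13.7% of first genes and 4.33% of gaps. The strongest sites at starts of runs with empty gaps were at cogc-2 (1755.2), tbb-1 (1523.6), for a beta-tubulin, and cct-5 (758.9), for a subunit of the CCT chaperonin. Each of these starts has a neighbour on the opposite strand, 630, 377 and 740 bp away, which for cogc-2 is klp-18.

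Where the start and a gap of a run were both held, either could be the stronger. Of the 35 such runs the start was the stronger in 25 and the gap in 10, with median signals of 161 and 120. The start was far the stronger in the runs of psf-3 and icd-2 (669.8 against 298.3), of cyb-2.2 and H31G24.3 (1188.9 against 121.3) and of cyb-2.1 and Y43E12A.3 (676.6 against 90.1), all chosen after their values were seen. The next 5 runs were chosen by the signal of the gap, which favours strong gaps. In the run of T25G3.1 and chs-1 the start had 111.0 and the gap 1331.9. In that of C28A5.2 and C28A5.1 they had 381.3 and 649.6, in that of F26H11.4 and dsb-2 106.2 and 351.1, and in that of Y39B6A.42 and Y39B6A.43 124.3 and 346.1. In the run of nra-2 and T05F1.2 the start was the stronger, with 423.8 against 390.1, and its site lies between nra-2 and lin-53, which are read away from each other.

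Of 7 textbook operon pairs looked up by name, only 2 fitted the rule. The glyceraldehyde-3-phosphate dehydrogenase genes gpd-2 and gpd-3 on X, with close to 100 bp between them, had no summit in the gap or at the start of the run. That run starts at gpd-2 because mai-1, listed in front of it, overlaps it, so the start of mai-1 was not looked at. None of the 244 gaps on X held a summit. For fib-1, the fibrillarin gene, and rps-16 on V, with 109 bp between them, the gap held none and the start of the run held 1, with signal 177, 81 bp upstream of fib-1 and in the lists of both replicates. The pairs mai-1 and gpd-2, lin-15B and lin-15A, and lir-1 and lin-26 overlap in the annotation, and mev-1 and ced-9 are 3 bp apart. For deg-3 and des-2 the distance was 112 bp, but they form no gap of the rule in the annotation used, and the reason was not looked up.

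The gap sites held 3 short words at a share close to that of sites elsewhere. The 3 words AAGGCGCA, GCCTTTAA and GCGAGACC were searched on both strands within 50 bp of each summit, and the first and second share the bases AAGGC on opposite strands, so they can overlap. At least 1 of them was found at 28 of 147 gap sites (19%) and at 20.2% of the 1825 sites outside gaps, from which the words had been taken. In windows of the same length at the middle of gaps with no summit the share was 2.39% for gaps of 200 to 500 bp and 0.746% for shorter ones, whose windows reach into the genes. By word, the shares at gap sites were 7.48%, 8.84% and 10.2%. Over whole gaps of 200 to 500 bp, 24.4% of those with a summit and 4.72% of those without held a word. In the gap before F26F2.7 the words lay more than 100 bases from the summit, and in that before rnr-1 the word was not wholly within 50 bp of it. Of the 20 strongest gap sites 17 held none within 50 bp, as the sequences before hcp-1, cul-4 and oma-1 show.

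The end of the gap differed between long gaps with and without a summit. Spliced leaders are joined at acceptors like those of introns, whose consensus in this animal matches TTNCAG. A gap whose last 6 bases match it ends where the annotated gene begins at such a site. Of the 123 gaps of 200 to 500 bp with a summit, 59 (48%, 39.3% to 56.7%) ended in TTNCAG, against 231 of 1463 without (15.8%, 14% to 17.7%). In replicate 1 the shares were 49% and 16.3% and in replicate 2 50.9% and 15.9%. Of gaps under 200 bp, 1 of 22 with a summit (4.55%, 0.807% to 21.8%) and 405 of 1743 without (23.2%, 21.3% to 25.3%) did. First genes of runs showed a difference in the same direction as the long gaps, with 40.6% of 342 held starts and 22.5% of the other 2155. Over all protein-coding genes 19% of starts directly followed the motif. The match marks where the annotation places the start and does not tell SL1 from SL2, and how well each gene's start is annotated was not tested. The motif ended 50 bases before the end of the gap in only 1 of 1586 gaps of 200 to 500 bp (0.0631%).

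**Figure D5:**
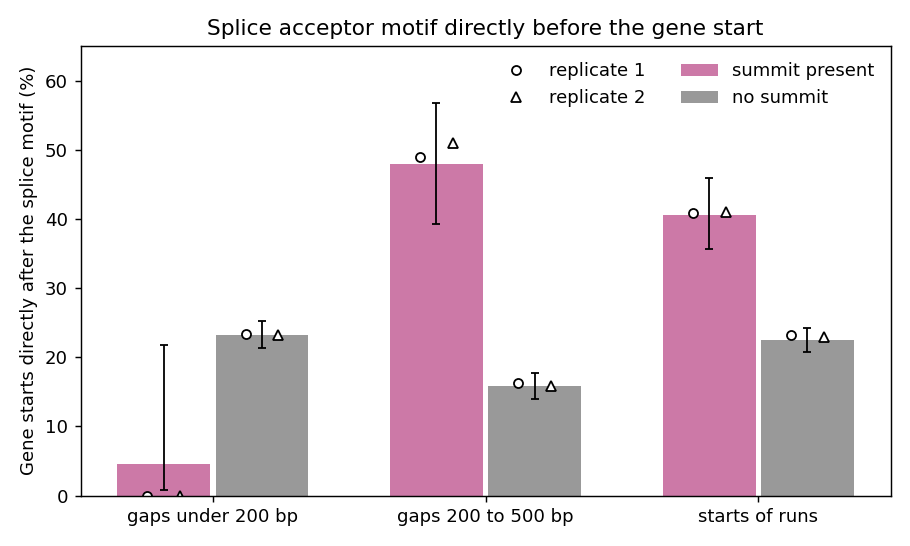
Share of gene starts directly preceded by the motif TTNCAG (y axis, %) for gaps under 200 bp, gaps of 200 to 500 bp and starts of runs (x axis), with and without a summit. Bars are the list from both replicates with 95% Wilson intervals, circles replicate 1 and triangles replicate 2. In gaps of 200 to 500 bp the share is 48% with a summit and 15.8% without.

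Base composition also varied with gap length. Gaps under 200 bp with no summit had a median GC content of 29.5% and 40% T on the coding strand, and gaps of 200 to 500 bp 32.6% GC and 35.3% T. Long gaps with a summit had 33.2% GC and 37.6% T, and short gaps with a summit 36.5% GC and 33% T. The part of base composition in the shares of gaps held was not tested. Gaps with a noncoding gene inside, which the rule leaves out, numbered 115 and held a summit in 8 cases (6.96%, 3.57% to 13.1%), with a median length of 311 bp. Among the gaps of the rule 4.33% held one, and 7.76% of those of 200 to 500 bp did, so this share is near that of gaps of such length.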

How the data were processed

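Sites came from ChIP-seq of tagged MADF-8 in 2 biological replicates of 1 group. The authors deposited, on assembly ce11, lists of sites that passed a cut-off on the irreproducible discovery rate, for each replicate and for both together, and ranked candidates. The deposited score is the scaled score of that rate, with a top value of 1000 and a lowest kept value of 830. The authors' signal was deposited as 1 value per site. Its scaling, the aligner and the peak caller were not given in the sources used here. Library depth is unknown, and intervals are for counting error alone.

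The summit is the deposited offset added to the site's start. Site ends were checked against the chromosome lengths of WBcel235, and genes came from Ensembl release 115. Windows, shares with 95% Wilson intervals, summits per kb and two-sided exact McNemar tests (threshold 0.05) were computed with Python 3.11.15, numpy 2.4.6 and scipy 1.17.1, and figures with matplotlib 3.10.9. The counting and the test were tested on simulated data. No test over samples was possible, and the lists of the replicates stand beside the main list. A replicate's signal is that of its overlapping site or candidate. Gaps, lists, words and tests were chosen with earlier results of these data known.

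Named genes are the 20 gaps with the strongest site, the 3 strongest gaps of each list, the 5 strongest gaps in runs whose start also held a summit, textbook operon pairs and the longest run. Other members of a list, starts of runs in a list, the strongest starts of runs with empty gaps, the run of lin-53 and the weakest sites were named after their values were seen. Alternatives were the authors' conservative set, single replicates, stronger sites, other windows, gap lengths and gaps of the run, and overlap in place of summits.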

Additional observations from a re-analysis of the deposited data

How the results depend on the processing

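Of 51 alternative values for 5 results, 38 were kept, which for a difference means the same direction and side of the threshold and for a count a value within 1.5 times the main one. The count of gaps held was 117 to 124 with 1 replicate left out, 88 for sites with signal at or above the median and 22 for gaps of 20 to 200 bp. The count of run starts held was 260 to 290 with 1 replicate left out, 200 for the stronger sites, 149 with a window that began 200 bp before the start and 76 of 998 for runs with a same-strand upstream neighbour. The share in the upstream stretch minus that in the first gap, -0.2 points, was -0.561 to -0.521 with 1 replicate left out. It reversed to 3.24 points when any overlap of a site counted (exact McNemar p = 4.41e-06), to 1.1 for gaps of 20 to 200 bp (exact p = 0.0479) and to 0.801 for the last gap of each run (exact p = 0.15), and was -2.2 with a same-strand upstream neighbour (exact p = 0.00815). Over its alternatives the p of this difference ran from 4.41e-06 to 0.778. The difference between first and second gene with a short first gap was 11.6 to 13.1 points with 1 replicate left out, and its exact p was at most 2.39e-05 under each alternative that changed 1 choice. With a same-strand neighbour and a single replicate together, the exact p was 6.88e-05 in replicate 1 and 0.000106 in replicate 2. With a long first gap it was 0 to 0.324 with 1 replicate left out, and it reversed to -0.162 for the stronger sites, -0.73 with the narrower window and -2.53 with a same-strand upstream neighbour, with no exact p under 0.0925 when 1 choice was changed. With a same-strand neighbour and a single replicate together, the exact p was 0.0114 in replicate 1 and 0.0365 in replicate 2. The causes of these reversals were not tested. All 20 strongest gaps held a summit in each of the 4 other sets of sites tried. The comparison of first and second genes and the set of sites present in both replicates were chosen after seeing the data.

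No paired analysis was possible because both samples belong to 1 group. The depth is unknown, so a gap with no summit is one in which none passed the authors' threshold. No candidate in a gap with a score of 830 or more was absent from the thresholded list of either replicate.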
